A study of Mus musculus with 15 samples.

Results

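The genes that let a neuron make, package or retrieve GABA, glutamate and glycine were followed through sorted nuclei of the mouse ventral tegmental area. They were picked by name, by a rule that uses no measured value, though with earlier results of these data known: Gad1, Gad2, Slc32a1, Slc17a6, Slc17a7, Slc17a8 and Slc6a5, which are 7 of the 35976 genes listed. All 7 had counts in every library and passed the filter on low counts in each comparison.

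Many midbrain dopamine neurons also release a fast transmitter. To release glutamate, a neuron must load it into vesicles through a vesicular glutamate transporter: VGLUT1 (Slc17a7), typical of cortex, VGLUT2 (Slc17a6), typical of thalamus and brainstem and the one known from dopamine neurons, or VGLUT3 (Slc17a8), found in scattered neurons that release another transmitter as well. GABA is made from glutamate by the decarboxylases GAD67 (Gad1) and GAD65 (Gad2) and is loaded by the vesicular GABA and glycine transporter VGAT (Slc32a1). Dopamine neurons have been described to release GABA that was made outside the GAD pathway or taken up from outside, and to load it through the vesicular monoamine transporter VMAT2 (Slc18a2). GlyT2 (Slc6a5) returns glycine to glycinergic terminals, which are common in the hindbrain.

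The mice were male B6.SJL-Slc6a3tm1.1(cre)Bkmm/J heterozygotes of 8 to 12 weeks, called DAT-Cre, with Cre recombinase at the dopamine transporter gene Slc6a3. All of them received AAV5-DIO-KASH-HA in the ventral tegmental area, a virus that puts an HA-tagged protein on the nuclear envelope of cells with Cre, and had 14 days for it to act. Nuclei with the HA tag are called dopaminergic here and nuclei without it non-dopaminergic. A nucleus was tagged only if its cell was infected and expressed Cre, so that other dopamine neurons fell into the untagged fraction. Each sample pooled the tissue of 2 mice. Food-trained mice, whose lever presses were rewarded with food for 7 days and never with cocaine, gave 4 dopaminergic and 4 non-dopaminergic libraries. Maintenance mice gave 3 dopaminergic libraries, taken after food training, catheter surgery, 5 daily sessions of 1 hour at 0.3 mg/kg of cocaine per infusion and 10 such sessions at 1.0 mg/kg. Abstinence mice gave 4 dopaminergic libraries after the same course and 21 days in the home cage without cocaine. No group went through catheter surgery, or the same span of time, without having taken cocaine, so that cocaine, catheter surgery and time cannot be told apart.

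Libraries held 25813697 to 59046618 counts, and values are given as CPM (a gene's count relative to the library's total, after scaling by edgeR's TMM factors). Dopaminergic replicate 3 of the food-trained mice was the shallowest library and had the fewest genes with a count, 14841. Non-dopaminergic replicate 2 had a slope of log2 CPM on GC content of -0.0247 per percentage point, against 0.0211 to 0.0325 in the other 3 of its group. Fits without each of these libraries were run, and are given for some genes singly, together or within a range over fits. The sort separated the populations by its own markers: dopaminergic nuclei had 878.6 ± 355.4 CPM of Th, the first enzyme of dopamine synthesis, and the untagged ones 37.4 ± 5.49 CPM (SD, n = 4 each). Of the 11 dopamine identity genes, 9 were higher at an adjusted p under 0.05 in edgeR's quasi-likelihood test, against 3.63% of all genes. The sum of the 11 in dopaminergic nuclei was 2020% of that in non-dopaminergic ones. That sum was 205% for 12 pan-neuronal genes, 14.4% for 9 oligodendrocyte, 37.8% for 9 astrocyte and 33.5% for 9 microglial markers, so the non-dopaminergic fraction held proportionally more glial RNA. In RNA of pooled nuclei, fewer cells that express a gene and less RNA of it per cell cannot be told apart.

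The upstream sequences of Slc17a6 and Slc32a1 are shown because these were the genes whose levels moved together most closely across the dopaminergic libraries. They are the 250 bases before a transcription start in RefSeq (GRCm38.p6), for Slc17a6 the first of 2 starts, both on the plus strand, 5′ to 3′, with capitals marking every match to the letters searched.
Slc17a6, chr7:51621580-51621829: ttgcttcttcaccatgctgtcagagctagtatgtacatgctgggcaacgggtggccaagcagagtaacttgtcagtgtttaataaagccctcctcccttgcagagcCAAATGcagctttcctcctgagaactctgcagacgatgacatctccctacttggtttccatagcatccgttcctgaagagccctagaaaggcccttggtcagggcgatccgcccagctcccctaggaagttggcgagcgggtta
Slc32a1, chr2:158610508-158610757: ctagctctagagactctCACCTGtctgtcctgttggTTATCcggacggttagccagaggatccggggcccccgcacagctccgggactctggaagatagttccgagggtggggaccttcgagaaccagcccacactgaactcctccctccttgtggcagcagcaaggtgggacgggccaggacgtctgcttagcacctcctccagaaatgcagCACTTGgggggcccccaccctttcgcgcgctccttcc
Both strands were searched for AAAGGTCA (the NBRE, bound by Nr4a2), TAATCC (bound by Pitx factors), GATAA (bound by Gata factors) and CANNTG (the E-box, bound by basic helix-loop-helix factors). This Slc17a6 window held 1 E-box, and the Slc32a1 window held 2 E-boxes and 1 GATAA. The window before the other Slc17a6 start, at chr7:51624387-51624636, held 2 E-boxes and no other match, with 41.2% GC and 3 CpG. An E-box was present in 66.2% and GATAA in 22.6% of all 32851 promoter windows of this length, so neither match sets the windows apart. Neither held AAAGGTCA or TAATCC, which 1.34% and 6.25% of windows had, and a match or its absence says nothing of binding. The windows shown differed in base composition: Slc17a6 had 53.2% GC and 7 CpG, and Slc32a1 had 62.4% GC and 12 CpG, against medians of 52.4% and 6 over all windows. No annotated exon lay in the Slc17a6 window, while that of Slc32a1 overlapped exons of the non-coding gene Gm14204 on the other strand.

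Set against transcript length, Slc17a6 was the most abundant of the genes in each of the 4 groups. Levels were divided by the length of the longest transcript in GENCODE M21 (GRCm38), from 2797 bases for Slc32a1 to 7065 bases for Slc6a5. In dopaminergic nuclei of food-trained mice Slc17a6 stood at 110.4 ± 50.8 CPM per kb (SD, n = 4) and exceeded Slc32a1 in 4 of 4 libraries. Slc32a1 followed at 33.5 ± 14.4 CPM per kb. Gad1 (10.8 ± 4.89 CPM per kb), Gad2 (10.7 ± 1.84), Slc6a5 (9.25 ± 9.59), Slc17a8 (8.56 ± 5.37) and Slc17a7 (6.60 ± 9.09) came next, and the range of each overlapped that of its neighbour in this order. With the length of all exons together, Gad1, whose exons sum to 7639 bases against 3601 in its longest transcript, fell to 5.11 CPM per kb and from rank 3 to rank 6. For scale, the vesicular monoamine transporter Slc18a2 was at 536.1 ± 159.0 CPM per kb in these libraries.

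**Figure D1:**
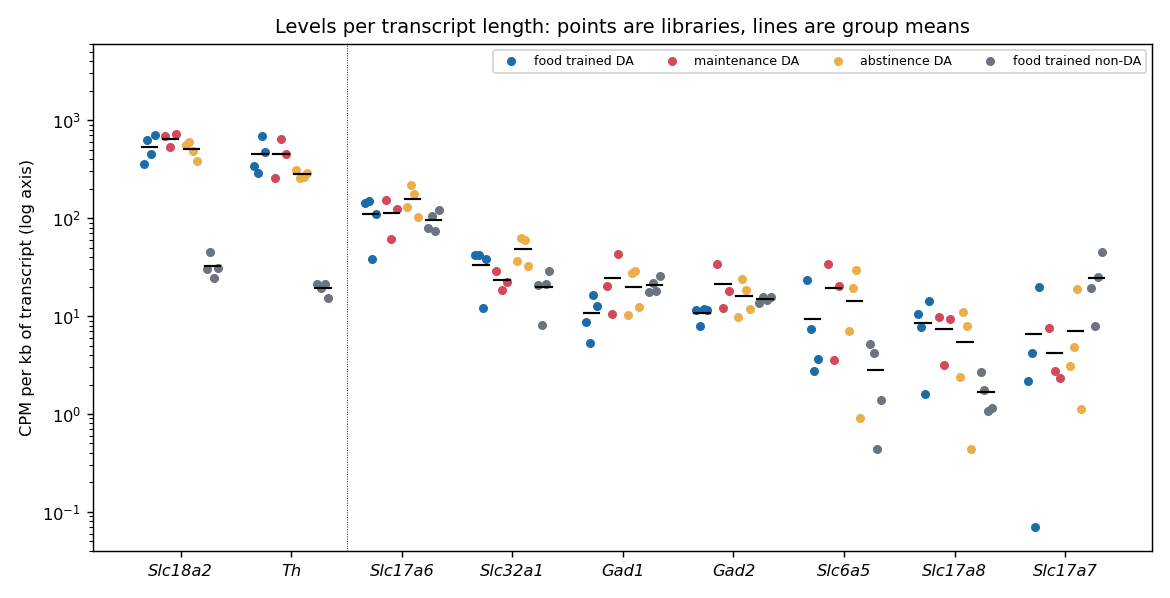
Levels per transcript length (CPM per kb, log axis) of the 7 genes, with the dopamine genes Slc18a2 and Th at the left; each point is a library and each line a group mean (n = 4, 3, 4 and 4). Slc17a6 lay above the other 6 genes in mean in all 4 groups, and below Th and Slc18a2 in the 3 dopaminergic groups.

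The ranges of the rest overlapped in part in the other groups too. In non-dopaminergic nuclei Slc17a7 came second at 24.4 ± 15.7 CPM per kb (SD, n = 4), followed by Gad1 at 20.8 ± 3.85, Slc32a1 at 19.7 ± 8.51 and Gad2 at 14.9 ± 0.873. Slc6a5 at 2.80 ± 2.25 and Slc17a8 at 1.67 ± 0.754 CPM per kb were lowest there, and Gad2 did not overlap with Slc6a5. With the length of all exons Slc17a7 was at 13.9 and Gad1 at 9.81 CPM per kb there, at ranks 4 and 5 behind Slc32a1 and Gad2. In abstinence, Slc17a6 at 156.0 ± 50.9, Slc32a1 at 48.1 ± 15.6 and Gad1 at 19.8 ± 9.74 CPM per kb did not overlap with one another (n = 4). In maintenance Slc17a6, at 112.3 ± 46.4 CPM per kb (SD, n = 3), did not overlap with Gad1 at 24.6 ± 16.8, and the ranks after it did. With the length of all exons Gad1 fell there to 11.6 CPM per kb and from rank 2 to rank 5.

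Slc17a6 was abundant in both populations, and its level did not separate them. In food-trained mice the dopaminergic replicates 1 to 4 had 590.0, 618.1, 159.4 and 458.5 CPM. The non-dopaminergic replicates had 328.0, 430.8, 303.9 and 505.3 CPM. Dopaminergic replicate 3 lay below all 4 non-dopaminergic libraries and replicates 1 and 2 above them, so the groups overlapped. The fitted difference was 0.23 ± 0.389 (log2, SE, edgeR adjusted p = 0.795), and without dopaminergic replicate 3 it was 0.54 (edgeR adjusted p = 0.166). That was the top of the range over the 8 fits with 1 library left out, which began at 0.043, and none passed. In maintenance the 3 libraries had 627.7, 252.9 and 512.6 CPM. In abstinence the 4 libraries had 535.0, 899.1, 725.5 and 422.3 CPM, the highest values of this gene in any group being those of replicates 2 and 3.

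Slc17a8 was the only one of the 7 genes past the threshold between the populations, with more in dopaminergic nuclei. The dopaminergic replicates 1 to 4 had 46.5, 34.7, 7.16 and 64.2 CPM. Non-dopaminergic nuclei, in the same order, had 12.1, 7.75, 4.78 and 5.16 CPM. Of the dopaminergic libraries 3 lay above all the others, and replicate 3, with 198 counts, lay among the non-dopaminergic ones. The fitted difference was 2.37 ± 0.636 (log2, SE; edgeR adjusted p = 0.0399), against 3.63% of 19786 genes called higher in this comparison and 12.8% called in either direction. The call rested on its setting. With the replicate number as a block, the difference was 2.09 (edgeR adjusted p = 0.116). Without dopaminergic replicate 3 it was 2.73 (edgeR adjusted p = 0.00935). Without dopaminergic replicate 1, 2 or 4 or any 1 of the 4 non-dopaminergic libraries it was 1.99 to 2.73, with edgeR adjusted p-values of 0.0527 to 0.114. Even so it stayed a small part of the vesicular glutamate transporters: of their summed level per length, Slc17a8 made up 6.36% ± 2.63 (SD, n = 4) in dopaminergic and 1.49% ± 0.862 in non-dopaminergic nuclei of food-trained mice.

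Slc17a7 went the other way in mean, with a wide spread. The dopaminergic replicates 1 to 4 had 6.65, 12.9, 0.217 and 61.6 CPM, where the value of replicate 3 came from 6 counts. The non-dopaminergic replicates had 58.9, 24.3, 77.0 and 139.9 CPM. Dopaminergic replicate 4 alone reached into the non-dopaminergic range, and the difference of -1.88 ± 1.16 (log2, SE) did not pass (edgeR adjusted p = 0.385). Without dopaminergic replicate 4 it was -3.50 (edgeR adjusted p = 0.0798). Slc17a7 was lower in the dopaminergic library of each of the 4 equally numbered pairs, and with the replicate number as a block the difference was -2.75 (edgeR adjusted p = 0.211). Slc17a7 made up 19.5% ± 9.04 (SD, n = 4) of the 3 transporters per length in non-dopaminergic and 4.48% ± 6.27 in dopaminergic nuclei. Slc17a6 made up the remainder, 79.0% ± 8.72 and 89.2% ± 8.73 respectively.

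**Figure D2:**
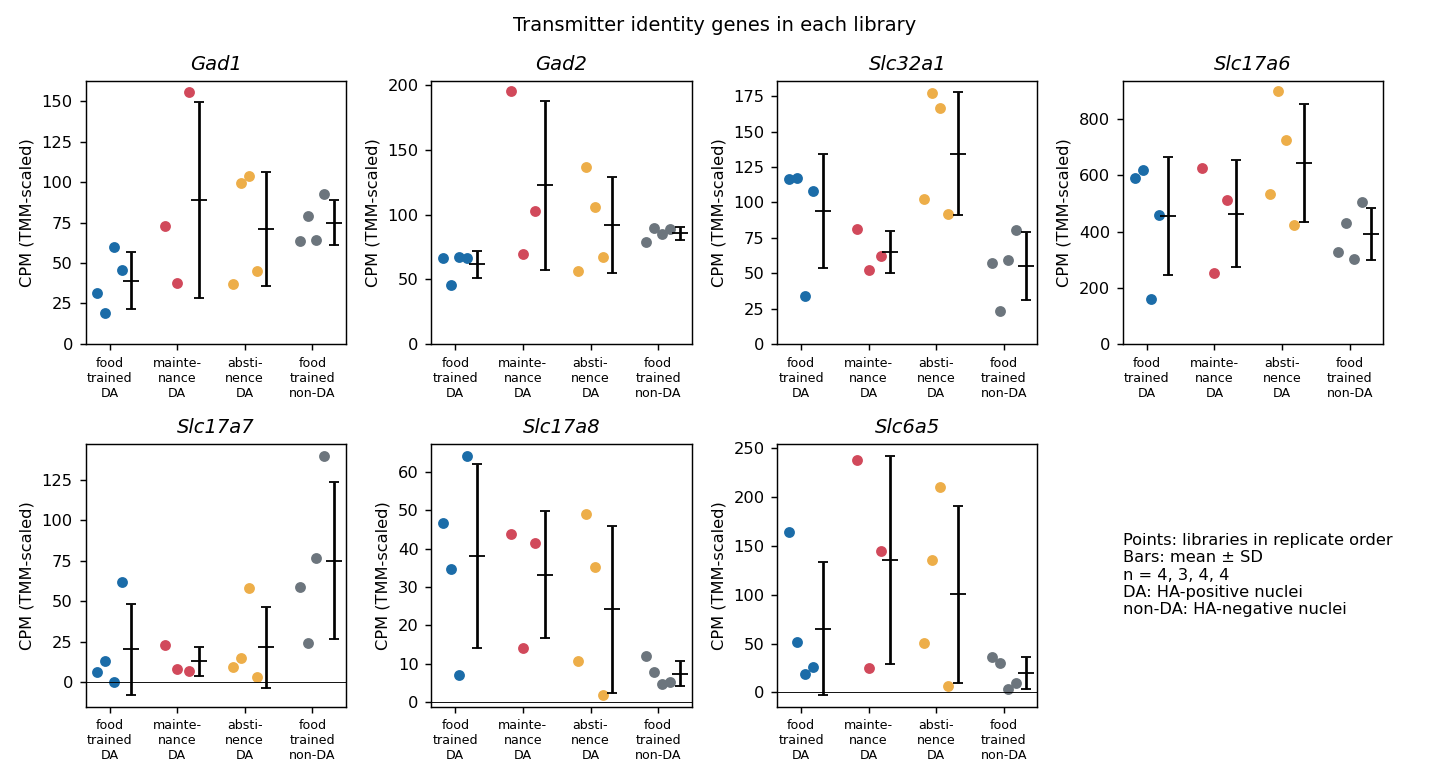
CPM of each gene in the 15 libraries; points are libraries in replicate order and bars are the mean ± SD (n = 4, 3, 4 and 4). Gad1 and Gad2 of food-trained mice do not overlap between dopaminergic and non-dopaminergic nuclei, while Slc17a6 does.

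Both decarboxylases were lower in each dopaminergic library of food-trained mice than in any non-dopaminergic one, but neither difference passed the threshold. For Gad1 the dopaminergic replicates 1 to 4 had 31.6, 19.1, 59.8 and 45.7 CPM. The non-dopaminergic replicates had 63.7, 79.1, 64.3 and 92.8 CPM. The difference was -0.93 ± 0.344 (log2, SE, edgeR adjusted p = 0.127), and without dopaminergic replicate 3, the highest of its group, it was -1.19 (edgeR adjusted p = 0.0356). The other 7 fits with 1 library left out did not pass, with values as small as -0.71. For Gad2 the dopaminergic replicates had 66.9, 45.7, 67.2 and 66.4 CPM. The non-dopaminergic replicates had 78.7, 89.7, 84.8 and 88.9 CPM, the tightest group of any of the 7 genes. The difference was -0.46 ± 0.185 (log2, SE; edgeR adjusted p = 0.157). Of all genes tested, 19.7% were lower in every dopaminergic library than in every non-dopaminergic one, so the lack of overlap of Gad1 and Gad2 was not rare.

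Slc32a1, which loads what the decarboxylases make, did not go with them. The dopaminergic replicates 1 to 4 had 116.2, 117.2, 33.8 and 108.1 CPM. Non-dopaminergic nuclei had 57.5, 22.9, 59.5 and 80.4 CPM. Of the dopaminergic libraries 3 lay above all the others, while replicate 3 lay above only non-dopaminergic replicate 2. The difference was 0.78 ± 0.46 (log2, SE; edgeR adjusted p = 0.359). With 1 library left out at a time it ran from 0.519 to 1.085 and passed in none of the 8 fits. Without both dopaminergic replicate 3 and non-dopaminergic replicate 2, a choice made after these data were seen, it was 0.84 (edgeR adjusted p = 0.0277). Per length, Slc32a1 over the sum of Gad1 and Gad2 was 2.04, 3.17, 0.427 and 1.59 in the dopaminergic libraries and 0.655, 0.218, 0.652 and 0.697 in the non-dopaminergic ones. The transporter thus outweighed the enzymes in 3 of 4 dopaminergic and 0 of 4 non-dopaminergic libraries. With the length of all exons together, a choice made after these data were seen, it did so in 3 and 1, the exception being non-dopaminergic replicate 4 at 1.05. Slc32a1 shares 697 exonic bases with Gm14205 on the other strand, and whether counting used strand is not given in the sources used here.

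Slc6a5 varied widely between replicates of each population. The dopaminergic replicates 1 to 4 of food-trained mice had 164.7, 51.8, 19.2 and 25.6 CPM. Non-dopaminergic nuclei had 36.5, 29.9, 3.08 and 9.73 CPM. The groups overlapped, and the difference was 1.73 ± 0.873 (log2, SE; edgeR adjusted p = 0.272). Without dopaminergic replicate 1, the highest library, it was 0.71 (edgeR adjusted p = 0.632). Within equally numbered pairs the dopaminergic library was the higher in 4 of 4, and with the replicate number as a block the difference was 1.76 ± 0.38 (log2, SE; edgeR adjusted p = 0.0589). The other glycine transporter Slc6a9 (GlyT1), known from glia, was lower in dopaminergic nuclei by contrast, at 128.4 ± 28.7 against 337.4 ± 113.3 CPM (SD, n = 4 each; log2 difference -1.38, edgeR adjusted p = 0.0118).

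Over the 7 genes, 1 was called higher and 0 lower between the populations, and 4 had a positive and 3 a negative difference, with a median of 0.23 against -0.21 over all 19786 genes. Of the 12 pan-neuronal genes, 11 had a positive and 1 a negative difference. EdgeR called 4 higher and 1, Elavl3, lower, against 3.63% and 9.17% of all genes. Scaling to these 12 genes, whose sum was higher in dopaminergic nuclei, lowered the differences together and moved the median of all genes to -1.268. Slc17a6 was then at -0.82 and Slc32a1 at -0.24 (edgeR adjusted p = 0.127 and 0.669), both above that median. On that scale Gad1 at -1.95 and Gad2 at -1.52 passed (edgeR adjusted p = 0.00453 and 0.00366), and Slc17a8 at 1.15 did not (edgeR adjusted p = 0.203). On that scale 68 genes were higher and 5738 lower, against 719 and 1815 with TMM.

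**Figure D3:**
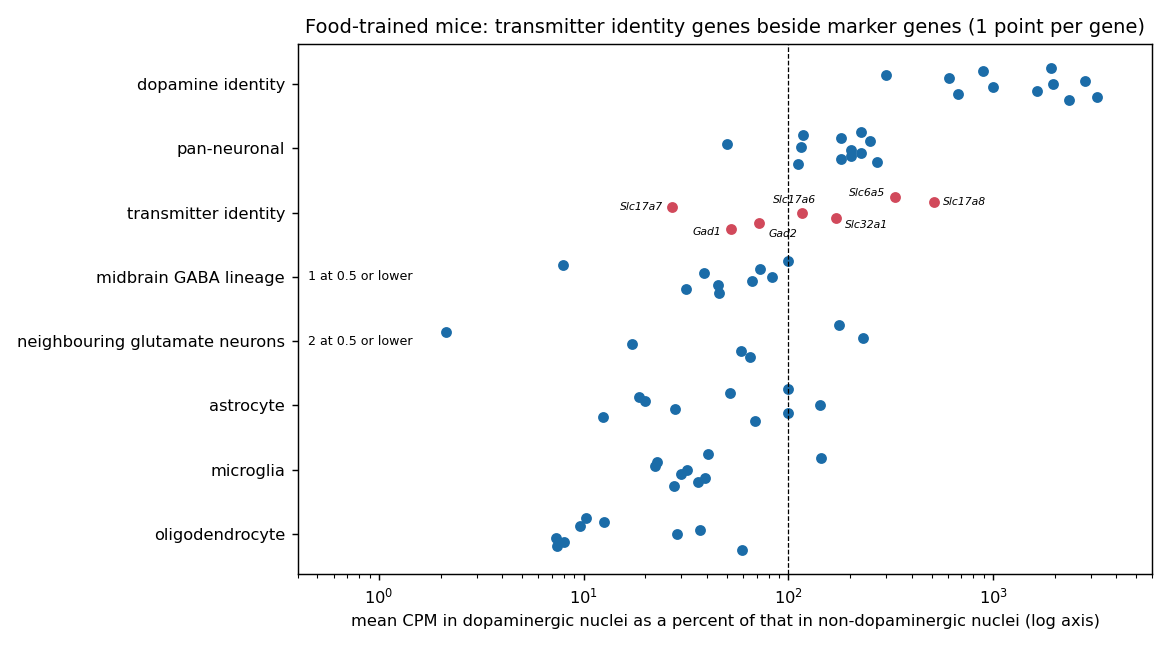
Mean CPM in dopaminergic nuclei as a percent of that in non-dopaminergic nuclei of food-trained mice (log axis), 1 point per gene, for the 7 transmitter identity genes and for marker lists; the dashed line is 100%. The 7 genes run from 27.1% (Slc17a7) to 512% (Slc17a8) and overlap at their ends with the dopamine identity genes, at 299% or more, and the oligodendrocyte markers, at 59.5% or less.

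Genes around these transmitters were also compared. Of 9 genes for GABA uptake, breakdown and synthesis without GAD, edgeR called 1 higher and 2 lower in dopaminergic nuclei, against 3.63% and 9.17% of all genes, and DESeq2 called 4, against 19.6%. The higher one was Aldh1a1, the aldehyde dehydrogenase described as a route to GABA in midbrain dopamine neurons that bypasses GAD, at 200.7 ± 33.8 against 80.1 ± 23.5 CPM (SD, n = 4 each; log2 difference 1.34, edgeR adjusted p = 0.0067). The lower ones were the GABA transporters Slc6a11 (GAT3), known from astrocytes, at 72.2 ± 31.6 against 224.5 ± 41.7 CPM (edgeR adjusted p = 0.0135), and Slc6a12 at 0.0259 ± 0.0518 against 4.63 ± 0.937 CPM (edgeR adjusted p = 0.0168). The GABA transaminase Abat was at 149.8 ± 12.1 against 128.1 ± 22.3 CPM and did not pass (edgeR adjusted p = 0.5). The median log2 difference over these 9 genes was -0.648.

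Of 14 genes for glutamate synthesis and transport, edgeR called 2 higher and 2 lower, against the same 3.63% and 9.17% of all genes, and DESeq2 called 6, against 19.6%. The amino acid transporter Slc38a1, which takes up glutamine, was higher at 706.1 ± 129.2 against 403.1 ± 50.5 CPM (SD, n = 4 each; log2 difference 0.82, edgeR adjusted p = 0.0262), and the neuronal glutamate transporter Slc1a6 was at 64.0 ± 3.89 against 38.1 ± 3.24 CPM (edgeR adjusted p = 0.0212). The astrocytic glutamate transporter Slc1a3 (GLAST) was lower at 52.4 ± 8.23 against 421.2 ± 128.6 CPM (edgeR adjusted p = 0.00135), as was Slc38a3, a glutamine transporter of astrocytes, at 20.5 ± 8.25 against 51.4 ± 6.80 CPM (edgeR adjusted p = 0.0249). The median over the 14 genes was -0.106. Of 7 tested genes for acetylcholine, serotonin and histamine, 0 were called by edgeR, 2 had an unadjusted p under 0.05, against 24.3% of all genes, and DESeq2 called 2, Slc6a4 and Fev, against 19.6%. The serotonin transporter Slc6a4 was at 27.3 ± 3.63 against 13.2 ± 5.24 CPM (edgeR adjusted p = 0.102).

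Markers of GABA and glutamate neurons outside the dopamine lineage were measured beside these genes. Transcription factors of the midbrain GABA lineage summed to 16.6 to 85.6 CPM in the dopaminergic and 92.3 to 105 CPM in the non-dopaminergic libraries of food-trained mice, 49.8% in mean. Of its 9 tested genes 8 had a negative difference, 0 were called by edgeR or DESeq2 and 0 had an unadjusted p under 0.05. The shares over all genes were 12.8%, 19.6% and 24.3%. Gata3 had 17.6, 0, 0.325 and 23.2 CPM in dopaminergic replicates 1 to 4 against 21.4 to 47.1 CPM in the non-dopaminergic libraries. Within this list Tal2 had 0 counts in the 4 dopaminergic libraries and Six3 was at 0.402 ± 0.803 CPM, while Lhx1 was at 13.9 ± 1.24 CPM in the dopaminergic and 16.8 ± 3.85 CPM in the non-dopaminergic libraries (SD, n = 4 each). Of 9 forebrain GABA markers 3 were at or below 3 counts in every dopaminergic library of food-trained mice, Dlx1 and Dlx6os1 with 0 counts among them. The sum of the 9 was 189 to 311 CPM in dopaminergic and 118 to 167 CPM in non-dopaminergic libraries, of which Sst made up 163.6 ± 59.5 and 108.5 ± 18.5 CPM (SD, n = 4 each). The median of the list was at 50.8% of its non-dopaminergic level, and 5 of the 8 tested had a negative difference. Of the 8 tested, edgeR called Dlx1 and Dlx6os1 lower, against 9.17% of all genes, and 1 higher, against 3.63%. The higher one was the neuropeptide gene Vip, at 46.3 ± 16.8 against 4.20 ± 2.47 CPM (SD, n = 4 each, edgeR adjusted p = 0.0067). Markers of neighbouring glutamate neurons, the mammillary, supramammillary and other hypothalamic or thalamic cells, summed to 67.2 to 107 CPM in dopaminergic and 70.7 to 88.0 CPM in non-dopaminergic libraries. Of these 8 markers 2 were at the floor of 3 counts in dopaminergic nuclei, and Lhx9 was at 0.256 ± 0.513 CPM. In dopaminergic nuclei most of that sum was Foxp2, at 65.2 ± 23.0 against 37.0 ± 9.25 CPM (SD, n = 4 each; log2 difference 0.83, edgeR adjusted p = 0.123). Of the 7 tested, edgeR called 1, Barhl2, which was lower, against 9.17% of all genes called lower. DESeq2 called 3, Barhl2, Lhx9 and Foxp2, against 19.6%. Apart from what these values show, the part of other cells in the levels of the 7 genes was not tested.

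Between the stages of cocaine taking, edgeR called 0 of the 7 genes in each of the 3 comparisons, and DESeq2 also called 0, while it called 5.13%, 0.735% and 4.16% of all genes in maintenance against food training, abstinence against food training and abstinence against maintenance. At an unadjusted p under 0.05 there were 2 of 7 in maintenance against food training, 0 of 7 in abstinence against food training and 1 of 7 in abstinence against maintenance, against 11.6%, 4.3% and 9.92% of all 19060 genes. Over all genes edgeR called 25 (0.131%), 0 (0%) and 34 (0.178%). The standard errors of the 7 genes ran from 0.343 to 1.23 on the log2 scale. The comparisons share libraries, each group entering 2 of them.

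The decarboxylases had higher means in both cocaine groups than in food-trained mice. In maintenance Gad1 was at 73.1, 37.5 and 155.6 CPM in replicates 1 to 3, and in abstinence at 36.9, 99.2, 103.5 and 44.9 CPM in replicates 1 to 4. The means were 39.0 ± 17.6 (n = 4), 88.7 ± 60.6 (n = 3) and 71.1 ± 35.1 CPM (SD, n = 4) in order of stage. Against food training the differences were 1.18 ± 0.511 and 0.85 ± 0.48 (log2, SE; edgeR adjusted p = 0.409 and 1), and the first was 0.49 without maintenance replicate 3. Gad2 was at 195.9, 69.9 and 103.0 CPM in maintenance and at 56.3, 137.1, 106.3 and 67.2 CPM in abstinence. All 3 maintenance libraries lay above the 4 food-trained ones, by as little as 69.9 against 67.2 CPM, and 4.31% of all genes separated in that way. The Gad2 differences from food training were 0.99 ± 0.367 and 0.56 ± 0.343 (log2, SE; edgeR adjusted p = 0.378 and 1), and the first was 0.49 without maintenance replicate 1. From maintenance to abstinence Gad1 had -0.33 ± 0.512 and Gad2 -0.43 ± 0.368, and without the same libraries these turned to 0.36 and 0.072.

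Slc32a1 had its lowest mean in maintenance. Its 3 maintenance libraries were at 81.5, 52.0 and 61.9 CPM. Its 4 abstinence libraries were at 102.5, 177.1, 166.5 and 91.8 CPM, all above maintenance, as were 7.68% of all genes. The difference of abstinence from maintenance was 1.04 ± 0.401 (log2, SE; edgeR adjusted p = 0.451). Food-trained libraries overlapped with both groups, and the differences from them were -0.53 ± 0.395 in maintenance and 0.51 ± 0.362 in abstinence (edgeR adjusted p = 0.721 and 1). Maintenance libraries also had the lowest slopes of log2 CPM on GC content, -0.0379 to -0.0225 per percentage point against -0.0166 to 0.0206 in the other dopaminergic libraries. The Slc32a1 transcript has 61.9% GC, the 97.9th percentile of 16321 genes. With that slope as a covariate the difference of abstinence from maintenance was 0.63 ± 0.689 in the dopaminergic libraries and 0.24 ± 0.539 over all 15 (edgeR adjusted p = 0.988 and 1). Gad1 and Gad2, with 47.3% and 44.1% GC, had 1.80 ± 1.01 and 1.40 ± 0.688 in maintenance against food training with the covariate. Transcription factors of the midbrain GABA lineage summed to 32.7 to 52.3 CPM in maintenance and 40.2 to 89.9 CPM in abstinence. Of the 9 tested between these stages edgeR called 0, 2 had an unadjusted p under 0.05, against 9.92% of all genes, and DESeq2 called 2, Gata2 and Sox14, against 4.16%. Both had 0 counts in the 3 maintenance libraries, with 3.13 ± 2.82 and 4.07 ± 2.24 CPM in abstinence (SD, n = 4). Over the 9 genes 7 were higher and 2 lower in abstinence. Gata3 was among the lower, at 26.3 ± 7.04 CPM in maintenance (SD, n = 3) and 19.9 ± 12.1 CPM in abstinence (n = 4). The part of these cells and of GC content in the level of Slc32a1 was not tested.

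The ratio of the transporter to its enzymes followed the same groups. Per length, Slc32a1 over Gad1 plus Gad2 was 0.535, 0.824 and 0.362 in maintenance and 1.83, 1.23, 1.26 and 1.36 in abstinence, without overlap. The food-trained libraries ran from 0.427 to 3.17, across both. With the length of all exons the ratios were 0.584 to 1.11 in maintenance and 1.74 to 2.54 in abstinence. No test was made of these ratios, and the part of GC content in them was not tested.

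**Figure D4:**
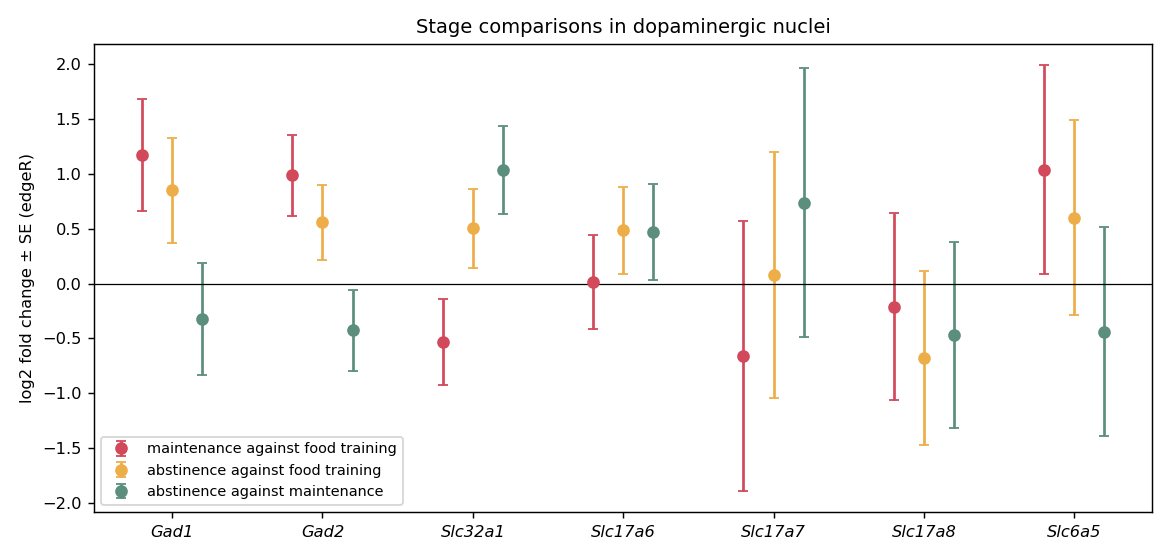
Log2 fold changes of the 7 genes between stages in dopaminergic nuclei, with the SE from edgeR's fit of 11 libraries (n = 4, 3 and 4). Gad1 and Gad2 lie above 0 in both comparisons with food training and below 0 from maintenance to abstinence (above 0 without maintenance replicate 3 and 1, respectively), and 0 of the 21 values passed the threshold.

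The glutamate transporters showed no difference between stages that passed. Slc17a6 had means of 456.5 ± 209.9, 464.4 ± 192.0 and 645.5 ± 210.4 CPM (SD, n = 4, 3 and 4) in order of stage. Its differences were 0.02 ± 0.43 in maintenance and 0.49 ± 0.399 in abstinence against food training (log2, SE; edgeR adjusted p = 1 for each). Slc17a8 was at 43.9, 14.1 and 41.4 CPM in maintenance and at 10.6, 49.1, 35.1 and 1.94 CPM in abstinence, where replicate 4 had 81 counts. Its differences from food training were -0.21 ± 0.855 and -0.68 ± 0.793 (log2, SE). Slc17a7 was at 23.1, 8.42 and 7.14 CPM in maintenance and at 9.41, 14.9, 58.5 and 3.45 CPM in abstinence. Slc6a5 was at 237.7, 24.9 and 144.6 CPM in maintenance and at 50.2, 135.3, 210.3 and 6.37 CPM in abstinence, a spread of 33.0 times within a single group. The differences of Slc17a7 from food training were -0.66 ± 1.23 and 0.08 ± 1.12, and those of Slc6a5 were 1.04 ± 0.953 and 0.60 ± 0.891 (log2, SE), with all edgeR adjusted p-values at 0.818 or above.

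In the gene lists for GABA, glutamate and glycine handling, edgeR also called 0 of 25 tested genes in each stage comparison. At an unadjusted p under 0.05 there were 5 in maintenance against food training, 3 in abstinence against food training and 9 in abstinence against maintenance, beside the 11.6%, 4.3% and 9.92% of all genes given above. DESeq2 called 2 (Abat and Slc25a22), 0 and 3 (Abat, Slc25a22 and Slc6a9) in that order, beside its 5.13%, 0.735% and 4.16% of all genes. The largest difference among those without overlap was that of Slc25a22, the mitochondrial glutamate carrier, at 10.7 ± 7.21 CPM in maintenance (SD, n = 3) against 62.6 ± 28.0 CPM after food training (n = 4; log2 -2.55, edgeR adjusted p = 0.136) and 46.7 ± 18.4 CPM in abstinence (n = 4). Of all genes 4.14% were lower in every maintenance than in every food-trained library. In non-dopaminergic nuclei Slc25a22 had 16.6 CPM in replicate 2, the library with the low GC slope, and 72.7 to 99.4 CPM in the others. Maintenance libraries had the lowest GC slopes of the dopaminergic ones, and the part of GC content in the level of Slc25a22 was not tested. Abat, which breaks down GABA, was at 83.3 ± 27.1 CPM in maintenance (n = 3) and 188.7 ± 43.4 CPM in abstinence (n = 4), without overlap (log2 1.18, edgeR adjusted p = 0.13).

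In food-trained and abstinence dopaminergic libraries the ratio of the glutamate to the GABA vesicle transporter varied little, and in maintenance it varied more. Per length, Slc17a6 over Slc32a1 was 3.43, 3.56, 3.19 and 2.87 in food-trained and 3.53, 3.43, 2.95 and 3.11 in abstinence libraries, although each gene varied over 3 times between the lowest and the highest food-trained library. In maintenance the ratio was 5.21, 3.29 and 5.60, with replicates 1 and 3 above all food-trained and abstinence libraries. The GC slopes of these maintenance replicates 1 to 3 were -0.0378, -0.0225 and -0.0379. The Slc17a6 transcript has 42.9% GC and that of Slc32a1 61.9%, and the part of GC content in the ratio was not tested. In non-dopaminergic nuclei the ratio was 3.85, 12.7, 3.46 and 4.25, the high value being that of replicate 2, the library with the low GC slope.

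**Figure D5:**
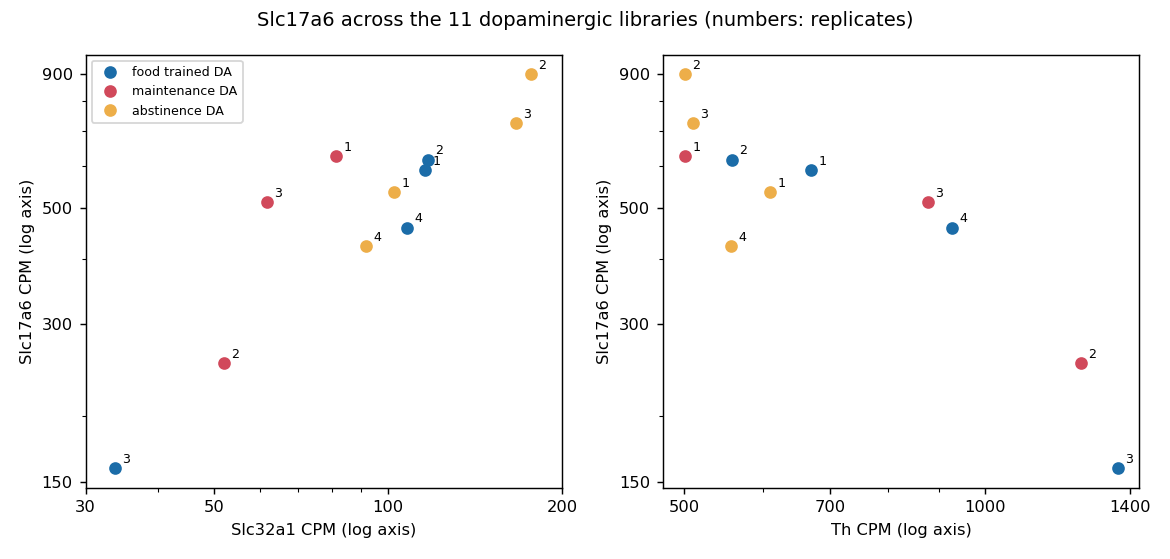
Slc17a6 CPM against Slc32a1 CPM (left) and Th CPM (right) in the 11 dopaminergic libraries (log axes); colours are stages and numbers are replicates. Slc17a6 was higher where Slc32a1 was higher and lower where Th was higher, with food-trained replicate 3 and maintenance replicate 2 at the low end of Slc17a6 in both plots.

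Across the 11 dopaminergic libraries Slc17a6 and Slc32a1 had Pearson's r = 0.902 (permutation p = 0.00017, adjusted over 21 pairs 0.0036) and Spearman's rho = 0.8 (permutation p = 0.0049, adjusted 0.044) on log2 CPM. Without the 2 libraries farthest from the median r was 0.693, and with stage means removed it was 0.947. Gad1 and Gad2 had r = 0.753 (permutation p = 0.007, adjusted 0.049) and rho = 0.782 (permutation p = 0.0063, adjusted 0.044), with 0.754 without 2 libraries and 0.646 within stages. Pairs of a decarboxylase with the GABA transporter did not pass: Gad1 with Slc32a1 had r = -0.003 and Gad2 with Slc32a1 r = 0.153 (permutation p = 0.99 and 0.65; rho = -0.064 and -0.045, permutation p = 0.86 and 0.9). Their r was 0.36 and -0.01 without 2 libraries and -0.017 and 0.364 within stages. Slc17a8 and Slc6a5 had r = 0.774 (permutation p = 0.0046, adjusted 0.048) and rho = 0.591 (permutation p = 0.06, adjusted 0.21), which was 0.4 without food-trained replicate 3 and abstinence replicate 4, and so rests on them, and 0.838 within stages. Slc17a6 and Slc6a5 had rho = 0.8 (permutation p = 0.0049, adjusted 0.044) and r = 0.652 (permutation p = 0.026, adjusted 0.091), with 0.706 without 2 libraries and 0.75 within stages. The other 17 pairs did not pass in either measure after adjustment.

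Slc17a6 ran against the dopamine enzyme Th. The libraries with the most Th, food-trained replicate 3 at 1359 CPM and maintenance replicate 2 at 1249 CPM, had the least Slc17a6, 159.4 and 252.9 CPM. Other dopamine genes did not peak with Th there. Slc6a3 was at 2270 and 1911 CPM, the lowest of each group, and Slc18a2 at 1977 and 2364 CPM. Their relation with Slc17a6 was not tested. Slc17a6 with Th had r = -0.878 (permutation p = 0.00044, adjusted over 14 relations 0.0031) and rho = -0.845 (permutation p = 0.0019, adjusted 0.027), with -0.602 without these 2 libraries and -0.862 within stages. Slc32a1 with Th had r = -0.819 (permutation p = 0.0024, adjusted 0.011) and rho = -0.655 (permutation p = 0.034, adjusted 0.079), with -0.501 without them. The total count moved with 5 of the 7 genes in at least 1 measure: with it Slc17a6 had r = 0.864 (permutation p = 0.00031, adjusted 0.0031) and rho = 0.782 (permutation p = 0.0064, adjusted 0.035). Slc32a1 with the total count had r = 0.8 (permutation p = 0.003, adjusted 0.011) and rho = 0.691 (permutation p = 0.022, adjusted 0.062). Without the same 2 libraries these values were 0.606 and 0.473. Slc17a7 had r = 0.737 with the total count (permutation p = 0.0078, adjusted 0.022) and rho = 0.5 (permutation p = 0.12, adjusted 0.21), with 0.479 without the 2 libraries. Slc6a5 had r = 0.717 (permutation p = 0.014, adjusted 0.033) and rho = 0.727 (permutation p = 0.015, adjusted 0.052), with 0.682. Slc17a8 had r = 0.647 (permutation p = 0.029, adjusted 0.058) and rho = 0.773 (permutation p = 0.0074, adjusted 0.035), with 0.593. The part of depth in the relations among these 5 genes, or of Slc17a6 with Th, was not tested.

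The genes most like each of the 7 in pattern over all 15 libraries were sought among 13274 genes by Pearson's correlation of log2 CPM, as a description. Slc17a6 was most like Entpd3, an ectonucleotidase, at 0.938, then the neuronal glutamate transporter Slc1a1 at 0.93 and Ctsf at 0.928. Slc32a1 was most like Slitrk1 at 0.955, Entpd6 at 0.936 and Men1 at 0.924. Slc17a8 had Qpctl at 0.954, Blcap at 0.896 and Rpn2 at 0.889. Slc17a7 had Csf1 at 0.953, Lsr at 0.914 and Patz1 at 0.895. Slc6a5 had Arl1 at 0.909, Ube2v1 at 0.891 and Nt5c3 at 0.881. Gad2 was most like Kcnj3, a subunit of a G-protein-gated potassium channel, at 0.88, then Tmem181a at 0.846 and Ogfod1 at 0.844. Gad1 was most like N4bp2l1 at 0.846, Gpr21 at 0.842 and Phactr1 at 0.837. These libraries share their depth and GC differences across genes.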

How the data were processed

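Nuclei sorted from the ventral tegmental area were sequenced after amplification of their cDNA, without molecular identifiers, so that precision from counts covers counting error only. The authors deposited whole-number counts per gene for 15 samples. The submitters' processing notes name Trim Galore 0.6.7, cutadapt 1.18, STAR 2.7.10a, StringTie 2.1.5, DESeq2 1.38.3 and the build GRCm38 (mm10); the annotation and strand setting are not given in the sources used here. A second deposited table held the same raw counts for 10 libraries (0 cells differed) and was not used. Groups came from the sample titles.

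The fits used edgeR 4.0.16 under R 4.3.3 (filterByExpr, TMM, quasi-likelihood test, two-sided, Benjamini-Hochberg adjusted p under 0.05 over all genes tested) and, as an alternative, DESeq2 1.42.0. The populations were compared in 8 libraries, and the stages in a fit of 11. Correlations used log2 CPM with a prior count of 2 and 100000 permutations, in Python 3.11.15 with scipy 1.17.1. The scripts were tested on simulated data. P-values measure the spread between these samples, each a pool of 2 mice. Transcript lengths and GC came from GENCODE M21, and 250-base upstream windows from RefSeq, where all 7 genes matched by symbol.

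The 7 genes, the gene lists, the tests and the alternatives were chosen with earlier results of these data known. Genes named are the 7, genes of the handling lists past the threshold or central to a step, and the 3 most like each of the 7 among genes with at least 100 counts in mean, predicted genes left out. Lhx9, Gata3, Dlx1, Dlx6os1, Vip, Barhl2, Foxp2, Lhx1, Slc6a4, Fev, Gata2, Sox14, Tal2, Six3, Sst, Slc25a22, Abat, Elavl3 and Slc6a3 were singled out after their values were seen. Some genes of the handling lists are counted but not reported singly here. The main fit of the 2 food-trained populations did not pair libraries. Equal replicate numbers were treated as pairs only in the replicate block and where pairs are counted. Deviations from the group means correlated at 0.116, 0.127, 0.262 and 0.243 between equal numbers. Each dopaminergic library correlated best with the non-dopaminergic library of its own number, and the reverse was not computed. The labels do not state this pairing.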

Additional observations from a re-analysis of the deposited data

Results flagged for a closer look

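In 21 groups of 4 libraries, 7 genes in 3 groups, each library was compared with the others of its group, a check that chance alone meets in about 1 in 20 groups. Gad2 was at 45.66 CPM in dopaminergic replicate 2 of the food-trained mice, well apart from the nearest library of the group at 66.42 CPM; that gap was 0.966 of the group's range. Slc32a1 was at 33.76 CPM in dopaminergic replicate 3 of the food-trained mice, against 108.1 CPM in the nearest library; that gap was 0.891 of the range.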

How the results depend on the processing

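Of 224 values of the 7 genes under the settings that kept every replicate or left out the 2 doubted libraries together, 201 kept their direction and their side of the threshold, 4 lost it, 3 gained it and 16 changed sign. Between the populations, 2534 genes became 3883 with the DESeq2 test (1505 higher, 2378 lower), 775 with the replicate block (413 higher, 362 lower) and 5806 with scaling to pan-neuronal genes, while all 15 libraries gave 763 higher and 1205 lower; leaving out 1 replicate gave 1900 to 3740. The count of the 7 genes called, 1, became 0 with all 15 libraries (Slc17a8 adjusted p in edgeR 0.069), the replicate block or the GC slope as a covariate (0.0565), 2 with pan-neuronal scaling or without both doubted libraries, and 0 to 2 with 1 replicate left out. With pan-neuronal scaling Slc32a1 was -0.24 and Slc17a6 -0.82; the block changed no other call of the 7.

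For maintenance against food training, 25 genes became 977 with the DESeq2 test, 0 with the replicate block, 1 with the GC slope, 4 with that slope over 15 libraries and 7 with pan-neuronal scaling. For abstinence against maintenance, 34 became 793, 2, 1, 4 and 12 in the same order, and 15 with all 15 libraries. For abstinence against food training, 0 became 140 with the DESeq2 test and stayed at 0 in the other settings run. Leaving out 1 replicate gave 5 to 78, 6 to 73 and 0 to 0, the lowest without maintenance replicate 1 (5 and 6) and the highest without maintenance replicate 2 (78 and 73). Signs changed in maintenance against food training for Slc17a6 (-0.011 without the filter, -0.00097 with the block, -0.11 with the GC slope over 15 libraries), Slc17a7 (0.31 with the block, 2.14 with the GC slope, 1.44 over 15 libraries), Slc17a8 (1.27 and 0.37 with the GC slope in both forms) and Slc32a1 (0.17 over 15 libraries). They changed in abstinence against food training for Slc17a7 (-0.30 and -0.15 with the GC slope), and in abstinence against maintenance for Slc17a7 (-2.44 and -1.59 likewise) and Slc6a5 (0.084 with the block). With 1 replicate left out, values ran from -0.27 to 0.28 for Slc17a6, -1.37 to 0.95 for Slc17a7 and -0.55 to 0.15 for Slc17a8 in maintenance against food training, from -1.15 to 1.69 for Slc17a7 and -0.061 to 1.62 for Slc6a5 in abstinence against food training, and from -0.66 to 0.36 for Gad1, -0.68 to 0.072 for Gad2, -0.49 to 1.45 for Slc17a7 and -1.10 to 0.24 for Slc6a5 in abstinence against maintenance. None of these passed the threshold in either form, and the cause was not tested. Equal numbers did not pair the stages: correlations of deviations ran from -0.351 to 0.11. With the length of all exons, 3 of 28 levels per length moved by over 1 SD, each of Gad1: 5.11, 9.31 and 9.81 CPM per kb after food training, in abstinence and in non-dopaminergic nuclei.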
